A study of Mus musculus with 6 samples.

Results

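The genes described here are 10 components and targets of the Hippo pathway in the late fetal mouse pancreas: the coactivators Yap1 and Wwtr1, the DNA-binding partners Tead1, Tead2 and Tead3, the kinases Lats1 and Lats2, and the target genes Ctgf, Cyr61 and Amotl2. They were chosen by symbol, and 8 of the 10 were found among the 14681 genes of the authors' deposited table; Tead3 and Ctgf were not analysed here. The study sequenced RNA of the dorsal pancreas from 3 knockout and 3 control C57BL/6 embryos at embryonic day 18.5. The extraction protocol in the labels calls the knockout embryos Dpy30∆P, and the series title concerns Trithorax group complexes, which methylate lysine 4 of histone H3 and share the subunit Dpy30. The labels name neither the driver of the deletion nor the genotype of the controls, so the cells that lost Dpy30 cannot be given here. The deposited table carries a name with Pdx1 in it and does not mention Dpy30; whether this stands for the driver of the deletion or for another deleted gene is not stated. The table holds 1 comparison, knockout against control, as test results per gene with 1 mean count over all libraries, so no value of a single library or group can be shown.

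The Hippo pathway relays cell contact, shape and polarity to transcription. Its kinases phosphorylate YAP and its paralog TAZ (the product of Wwtr1), which are then held in the cytoplasm or degraded; unphosphorylated YAP and TAZ enter the nucleus and act through TEAD proteins, which bind DNA. In the developing pancreas YAP is active in progenitors and duct-like cells and is switched off in cells that enter the endocrine lineage, and loss of the upstream kinases disturbs acinar tissue in mice. YAP is regulated mainly at the protein level, which RNA sequencing does not measure; the mRNAs of its targets are the usual transcriptional readout. Fibroblasts, smooth muscle and endothelial cells of the organ also use the pathway.

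The promoter letters that TEAD proteins are known to recognise are shown for Cyr61 and Amotl2, the 2 analysed members chosen as target genes. The capitals mark the 6 bases CATTCC, the core of the TEAD recognition sequence, whose reverse complement is GGAATG; both strands were searched in the 250 bases before the annotated start. The sequences are from RefSeq, build GRCm38.p6, written 5′ to 3′ on the strand of the gene. For Cyr61 (listed there as Ccn1) the window is chr3:145649986-145650235 on the minus strand, and for Amotl2 it is chr9:102717554-102717803 on the plus strand.
Cyr61: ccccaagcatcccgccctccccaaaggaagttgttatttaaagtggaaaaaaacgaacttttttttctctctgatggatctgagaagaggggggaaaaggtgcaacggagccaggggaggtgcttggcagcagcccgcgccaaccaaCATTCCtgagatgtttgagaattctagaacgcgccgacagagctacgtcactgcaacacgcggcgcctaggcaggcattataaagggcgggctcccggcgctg
Amotl2: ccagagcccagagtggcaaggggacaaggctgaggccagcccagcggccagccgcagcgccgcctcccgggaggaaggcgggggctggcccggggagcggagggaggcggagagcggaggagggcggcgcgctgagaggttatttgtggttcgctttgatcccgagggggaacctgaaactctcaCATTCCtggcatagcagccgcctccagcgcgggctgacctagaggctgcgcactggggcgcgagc
The match begins 103 bases before the start of Cyr61 and 65 bases before that of Amotl2. Promoters of 7 of the 8 genes could be matched by gene ID, and 4 of these held the 6 bases: besides both targets, these were Yap1, 141 bases before its start, and Wwtr1, whose 2 annotated starts lie 136 and 170 bases after the same match. The windows of Tead2, Lats1 and Lats2 did not hold these letters, although Lats2 is also a YAP target. Among all 32851 promoters of the reference 12.6% held them, and among 11547 genes of the table with a promoter 13.0% did. A match is a description of the letters and not evidence of binding. The Amotl2 window lies before a RefSeq start that is inside the longer gene span of the GENCODE annotation given below. Both Lats2 windows likewise lie wholly inside the GENCODE span of Lats2, so the bases before its GENCODE start were not searched.

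Some facts of the whole table bear on every value below. The mean normalized counts summed to 3663175, and the depth of each library is unknown. The tissue carried its defining transcripts: 20 of 22 genes on the list of acinar enzymes were present and made up 13.1% of the counts. Most genes of this list encode digestive enzymes, and some encode other secretory or granule proteins of acinar cells. Which group stands on top of the fold changes is stated nowhere. They are read here as knockout over control by convention, so a negative value means lower in the knockout, and all signs given here would change if the authors divided the other way. The gene that the labels give as deleted did not settle this: Dpy30 averaged 29.4 normalized counts, its value in the authors' deposited table was 0.01 ± 0.22 (log2; posterior SD) with a DESeq2 adjusted p of 1.00, and the unshrunken value was 0.50 ± 1.66 (SE). In a bulk sample of this kind, fewer cells of a type and less RNA per cell cannot be told apart. The labels speak of 3 embryos of each kind but do not tie a library to an animal beyond its number, so the p-values rest on the spread among these 6 samples, which may in part be technical.

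No Hippo member passed the authors' test. All 8 had an adjusted p from the authors' DESeq2 test: 0 had an adjusted p under 0.05, against 0.743% of 12108 genes, and an unadjusted p under 0.05 was reached by 0, against 5.39% of 14386 genes. At these background rates a count of 0 among 8 genes is an ordinary one. The sign was negative for Yap1, Tead1, Tead2, Lats1 and Cyr61 and positive for Wwtr1, Lats2 and Amotl2, which is 5 against 3; of all genes, 45.3% were negative. The deposited fold changes were shrunken towards 0, and 92.7% of all genes lay within 0.1 of 0, so unshrunken log2 fold changes and their standard errors were reconstructed (n = 3 against 3). Their median over the 8 genes was -0.13, with values from -0.88 to 0.51. Relative to pan-epithelial genes this median turned to 0.36, and the signs to 3 negative and 5 positive, as Yap1 and Tead1 changed sign. Relative to mesenchyme genes it was -0.58, and Wwtr1 and Amotl2 turned negative, which left only Lats2 positive, at 0.07. Among genes with an SE of at most 1 the median without scaling was -0.12 for 7 of these genes and -0.04 for all 5710 such genes of the table. These are log2 differences between groups, not levels.

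**Figure D1:**
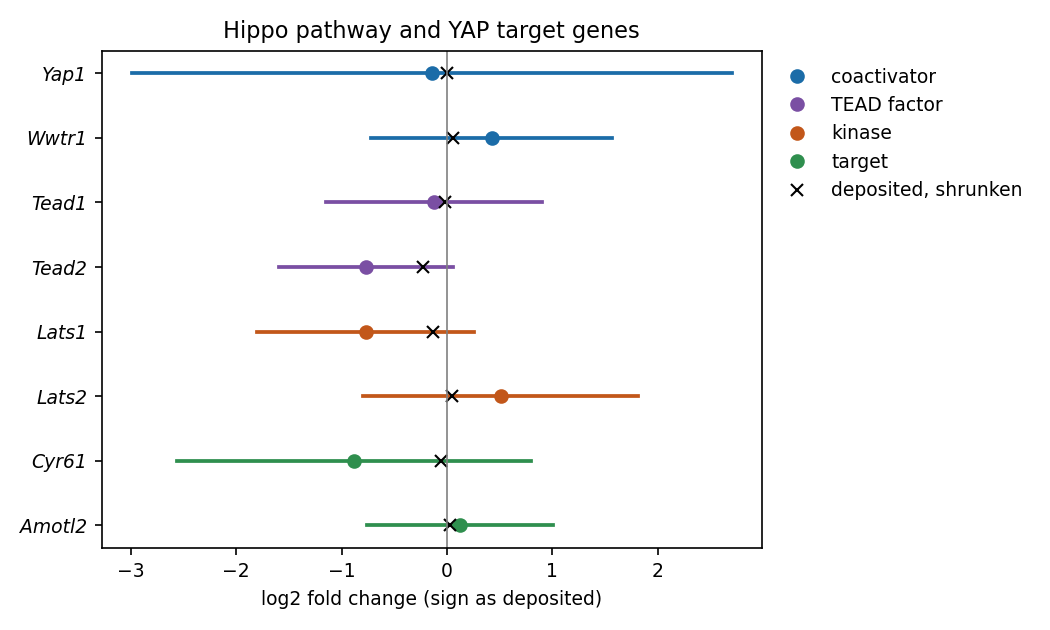
Differences between knockout and control (x axis: log2 fold change, signed as in the deposited table) for the 8 Hippo pathway and YAP target genes (y axis), with circles for unshrunken values, bars for their 95% intervals, colours for the role of each gene and crosses for the authors' deposited shrunken values. All 8 intervals include 0; Tead2 comes nearest to leaving it out, with an upper bound of 0.05, and Yap1 has the widest interval, from -2.99 to 2.70.

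The coactivators come first. Yap1 (Entrez gene 22601; chromosome 9, 7931999 to 8004596, minus strand, GRCm38) had a mean normalized count of 40.5 over the 6 libraries. Its deposited log2 value in the authors' table was -0.0032 ± 0.22 (posterior SD), with p = 0.912 in DESeq2. The unshrunken value was -0.15 ± 1.45 (SE), and its 95% interval ran from 7.96-fold lower to 6.50-fold higher. With an error of this size, only a very large change could have been detected. Wwtr1 (Entrez gene 97064; chromosome 3, 57455649 to 57575910, minus strand) encodes TAZ, which shares the TEAD partners of YAP. It was better measured, with a mean normalized count of 253 and an unshrunken log2 fold change of 0.42 ± 0.58 (SE; p = 0.471 in the authors' deposited DESeq2 table). Its interval allowed at most 1.65-fold lower and 2.97-fold higher mRNA. Relative to mesenchyme genes, its value turned to -0.02, and relative to pan-epithelial genes that of Yap1 turned to 0.35; both scalings shift every gene by a constant.

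A TEAD gene had the smallest p of the members. Tead2 (Entrez gene 21677; chromosome 7, 45215753 to 45233644, plus strand), a TEAD gene active in embryonic tissue, had a mean normalized count of 564. The deposited log2 value of the authors' table was -0.23 ± 0.32 (posterior SD), with p = 0.0661 and an adjusted p of 0.830 in DESeq2. Unshrunken, it was -0.77 ± 0.42 (SE); the 95% interval, from -1.59 to 0.05, spans 3.02-fold lower to 1.04-fold higher mRNA. In the whole table, 6.74% of genes had a p as small as that of Tead2 or smaller. Tead1 (Entrez gene 21676; chromosome 7, 112679318 to 112906807, plus strand), which many tissues express, had a mean normalized count of 284 and an unshrunken log2 fold change of -0.12 ± 0.52 (SE; p = 0.814 in the authors' DESeq2 table). Its interval ran from -1.14 to 0.90 and overlapped that of Tead2. Relative to pan-epithelial genes, the value of Tead1 turned to 0.37 while that of Tead2 became -0.28. The difference between both genes was not tested, since errors of genes measured in the same libraries may be correlated and the table does not give that correlation.

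The kinases LATS1 and LATS2 phosphorylate YAP and TAZ directly, and Lats2 is also a transcriptional target of YAP that forms a feedback loop. The 2 genes had values of opposite sign. Lats1 (Entrez gene 16798; chromosome 10, 7681214 to 7716460, plus strand) had a mean normalized count of 470 and an unshrunken log2 fold change of -0.77 ± 0.53 (SE), with p = 0.141 in the authors' deposited DESeq2 table. Lats2 (Entrez gene 50523; chromosome 14, 57689662 to 57758388, minus strand) had a mean normalized count of 190 and an unshrunken log2 fold change of 0.51 ± 0.66 (SE), with p = 0.446 in the same DESeq2 table of the authors. The 95% intervals, from -1.80 to 0.26 for Lats1 and from -0.79 to 1.81 for Lats2, overlapped, and neither gene passed the authors' test. In the deposited shrunken values the same contrast is -0.13 for Lats1 against 0.05 for Lats2, which shows how far the shrinkage reduced both.

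Cyr61 and Amotl2 are direct YAP targets; their promoter letters are given above. Cyr61 (Entrez gene 16007; chromosome 3, 145646976 to 145649981, minus strand), an immediate-early gene for a secreted matrix protein now also called Ccn1, had a mean normalized count of 94.1. Its unshrunken log2 fold change was -0.88 ± 0.86 (SE), with p = 0.301 in the authors' deposited DESeq2 table and a 95% interval from 5.90-fold lower to 1.73-fold higher. Amotl2 (Entrez gene 56332; chromosome 9, 102716672 to 102733418, plus strand), an angiomotin family scaffold that binds YAP and restrains it, was the most abundant member by count, at 625. Its unshrunken log2 fold change was 0.12 ± 0.45 (SE; p = 0.787 in the authors' DESeq2 table), with an interval from 1.69-fold lower to 2.01-fold higher. Relative to mesenchyme genes it turned to -0.32. Cyr61 and Amotl2 thus had values on opposite sides of 0, and both intervals included 0. Lats2, also a YAP target, was at 0.51 ± 0.66 (SE).

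Levels between genes can be compared only per length, and here the mean normalized count per kb of the longest protein-coding transcript was used, as a level over all 6 libraries. Tead2 had the highest level, 166 per kb, followed by Amotl2 with 144. Lats1 with 65.2, Wwtr1 with 53.8, Cyr61 with 46.6, Lats2 with 36.6 and Tead1 with 28.5 formed a middle group. Yap1 had the lowest level, 9.70 per kb, and 29.4% of the 13589 genes with a length were at or below it, against 92.6% for Tead2. With the median length of the coding transcripts in place of the longest, Tead2, Amotl2 and Yap1 kept places 1, 2 and 8, while Tead1 took place 3 instead of 7, so the order within the middle group depends on the transcript chosen. The spread over samples is not in the table, and neighbours in this order cannot be tested.

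**Figure D2:**
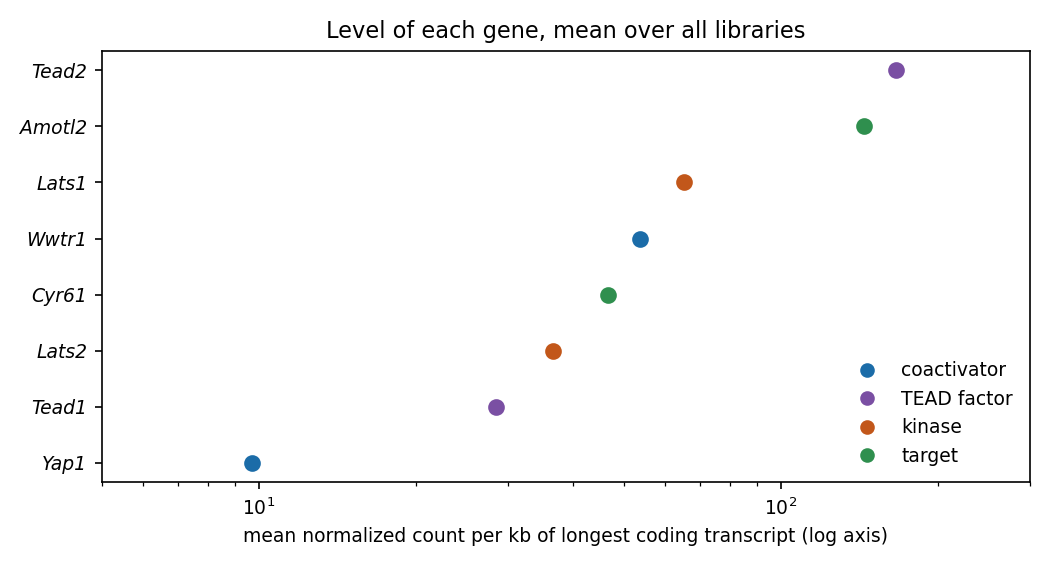
Level of each of the 8 genes (y axis) as the mean normalized count per kb of its longest protein-coding transcript (x axis, logarithmic), averaged by the authors over all 6 libraries; colours give the role. Tead2 and Amotl2 lie highest, at 166 and 144 per kb, and Yap1 lowest, at 9.70 per kb.

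The standard error of each gene sets how large an estimated change had to be for its 95% interval to leave out 0. A true change of that size could still be missed. A 95% interval leaves out 0 only where the estimated change exceeds 1.96 standard errors, which was 1.77-fold for Tead2, 1.84-fold for Amotl2, 2.03-fold for Tead1 and 2.04-fold for Lats1. It was 2.21-fold for Wwtr1, 2.47-fold for Lats2, 3.20-fold for Cyr61 and 7.19-fold for Yap1. The authors' call asked for more than this, since the largest p among their called genes was 0.000347. Over all genes with a reconstructed value the median SE was 0.66 at mean counts from 100 to 1000 and 1.64 at mean counts from 10 to 100, and the members' errors, 0.42 to 0.86 apart from Yap1, lay in the cloud of other genes.

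**Figure D3:**
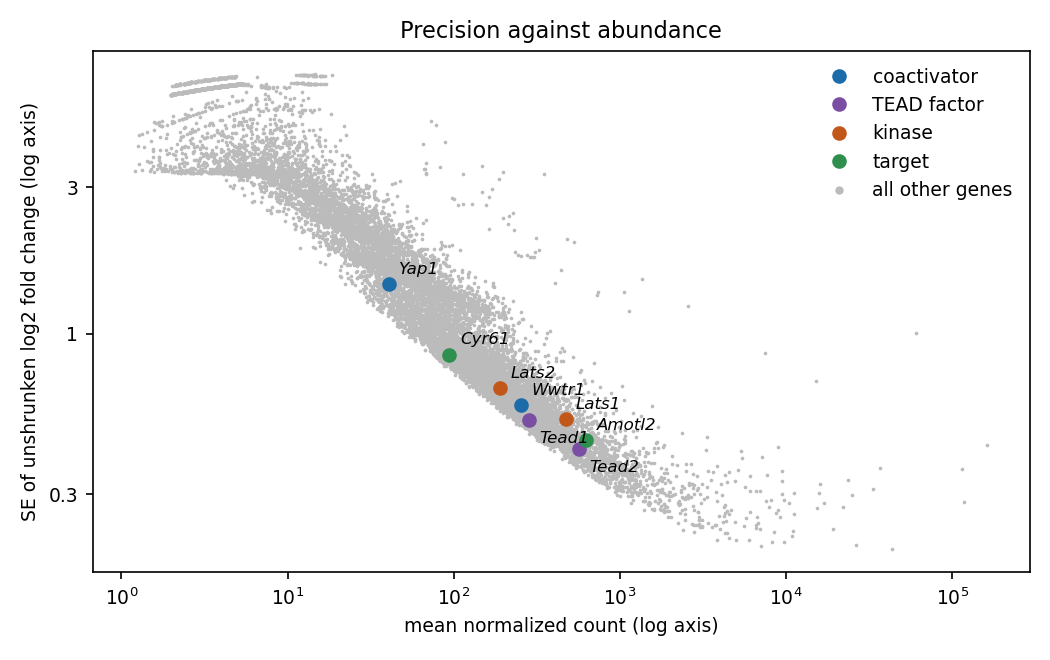
Standard error of the unshrunken log2 fold change (y axis, log2 units, logarithmic axis) against the mean normalized count (x axis, logarithmic) for genes with a reconstructed value (grey) and the 8 Hippo members (coloured by role). The error falls with abundance, to 0.42 for Tead2, and is 1.45 for Yap1.

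The rest of the pathway was described from 3 further lists. Of 42 upstream regulators (kinases, scaffolds, polarity genes and the proteins that hold or degrade YAP), 35 were in the table and 34 had an adjusted p. Of these, 0 were called in either direction by the authors' DESeq2 test, and 1 reached an unadjusted p under 0.05, which is 2.94% against 5.39% for all genes. That gene was Dchs1, a large cadherin that signals to the pathway from the cell surface, at an unshrunken log2 fold change of 1.48 ± 0.65 (SE; p = 0.0249 and adjusted p = 0.621 in the authors' deposited DESeq2 table). Its partner Fat4, given for its role, had a mean normalized count of 28.0 and no p. Next by p were Taok2, a kinase that activates the Hippo kinases, at 0.89 ± 0.53 (SE; p = 0.0981), and Dlg5, a polarity scaffold, at -0.74 ± 0.48 (SE; p = 0.124 in the authors' DESeq2 table). The list as a whole had 14 negative and 21 positive signs and a median of 0.16 over 25 genes with an SE of at most 1.

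Some upstream genes are given for their place in the pathway, after their values were seen. The core Hippo kinases that activate LATS1 and LATS2 had unshrunken log2 fold changes of -1.04 ± 0.68 (SE) for Stk4 and 0.81 ± 1.21 for Stk3. Their adaptors Mob1a and Mob1b were at 0.64 ± 1.18 and -1.82 ± 2.15, too imprecise for a direction. Nf2, the membrane scaffold Merlin that recruits LATS1 and LATS2, was at -0.08 ± 0.56 and Amot, a paralog of Amotl2, at -0.38 ± 0.87. The 5 genes of 14-3-3 proteins, which hold phosphorylated YAP in the cytoplasm, were all positive, from 0.07 to 0.61, and 0 of 5 reached an unadjusted DESeq2 p under 0.05. Ywhae and Ywhab were the highest of them, at 0.61 ± 0.41 and 0.49 ± 0.34 (SE). Relative to mesenchyme genes, 0.44 is taken from each of these values, which makes 3 of the 5 negative.

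The other genes that act with TEAD proteins were mostly scarce. Of 10 listed, 6 were in the table, 0 of the 5 with an adjusted p were called by the authors' DESeq2 test, and 0 of 6 reached an unadjusted p under 0.05. Runx3, a transcription factor that can bind TEAD proteins, had p = 0.0510 and a deposited log2 fold change of -0.03 ± 0.22 (posterior SD) in the authors' deposited table; its unshrunken size could not be determined. The related factors Runx2 (p = 0.461) and Runx1 (p = 0.696 in the authors' DESeq2 table) followed, with unshrunken log2 fold changes of 2.99 ± 4.36 and -0.75 ± 2.02 (SE), too imprecise for a direction. Tead4 and Jun are given for their roles, after their values were seen. Tead4, another TEAD gene, had a mean normalized count of 10.6 and an interval from -5.96 to 4.52 around its log2 fold change. Jun, part of the AP-1 factor that works with YAP and TEAD at enhancers, was well measured at -0.04 ± 0.37 (SE).

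A signature of further YAP and TAZ targets leaned to positive values, and 0 of its genes passed the authors' test. Of 18 listed, 16 were in the table, 15 had an adjusted p, 0 were called by DESeq2, and 0 of 16 reached an unadjusted p under 0.05. The sign was positive in 14 of 16, or 87.5%, against 54.7% of all genes in the table. The median was 0.56 over the 10 genes with an SE of at most 1, of which 9 were positive, against 2694 of all 5710 such genes. Ptpn14, named after its value was seen, is counted both here and among the upstream regulators. The smallest p values were those of Rbms3, an RNA-binding protein, at 1.19 ± 0.67 (SE; p = 0.0792), Asap1, a regulator of the cytoskeleton, at 1.05 ± 0.63 (p = 0.0991), and Gadd45a, a stress-induced gene (p = 0.101 in the authors' DESeq2 table), whose size could not be determined. Further genes of the signature were chosen after their values were seen. Axl, a receptor kinase, and Crim1, a membrane protein that binds growth factors, were at 0.71 ± 0.46 and 1.02 ± 0.66. Ankrd1, often used as a YAP readout, had a mean normalized count of 2.62 and no adjusted p. Myof was the single negative gene of the 10, at -0.14 ± 0.43. Cyr61, at -0.88, lay below all 10 of these genes.

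The lists of cell type markers lay on different sides of 0, and their values are set beside those of the pathway lists. Genes of the mesenchyme, a tissue that expresses many YAP targets, had a positive sign in 17 of 22 and a median of 0.44 over 20 genes; 0 of 22 passed the authors' DESeq2 test, while 5 had positive values with an unadjusted p under 0.05, which is 22.7% against 2.7% of all genes in that direction. Col3a1 (collagen III) and Vim (vimentin), with the smallest p of that list, were at 0.63 ± 0.20 and 0.65 ± 0.23 (SE). Smooth muscle genes had a positive sign in 11 of 14 and a median of 0.57 over 8 genes, with Smtn (smoothelin) at 1.05 ± 0.44 and Des (desmin) at 0.81 ± 0.48 (SE). Pan-epithelial genes had a negative sign in 15 of 17 and a median of -0.49 over 13 genes, with Krt18 called lower at -1.23 ± 0.28 (adjusted p = 0.00315 in the authors' DESeq2 table) and Ap1m2, an epithelial sorting adaptor, at -1.69 ± 0.80. The lists farthest from 0 were those of differentiated cells. The acinar list had 13 of 19 genes called lower and 0 called higher, with a median of -1.92 over 18 genes. Clps (colipase, a lipase cofactor) was at -3.19 ± 0.27 and Cpa1 (carboxypeptidase A1) at -2.60 ± 0.27 (SE). The sign was negative in 17 of 20 acinar genes and positive in 3. Of the positive genes, named after their values were seen, Try4 was at 1.20 ± 0.36 and Cela1 at 0.56 ± 0.28 (SE). Endocrine genes had 4 of 14 called lower and 0 called higher, with a median of -2.53 over 6 genes; Ins2 (insulin) was at -3.56 ± 0.42 and Chga (chromogranin A) at -2.74 ± 0.55 (SE). Over all genes, 0.479% were called lower and 0.264% higher. The 10 measured targets of the signature, with a median of 0.56, therefore stood near the mesenchyme and smooth muscle values, and taken relative to the mesenchyme median their median would be lower by 0.44. The summed level of a marker list per group cannot be given, because the table holds 1 mean over all libraries, and the part of cell composition in the values of Hippo genes was not tested.

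**Figure D4:**
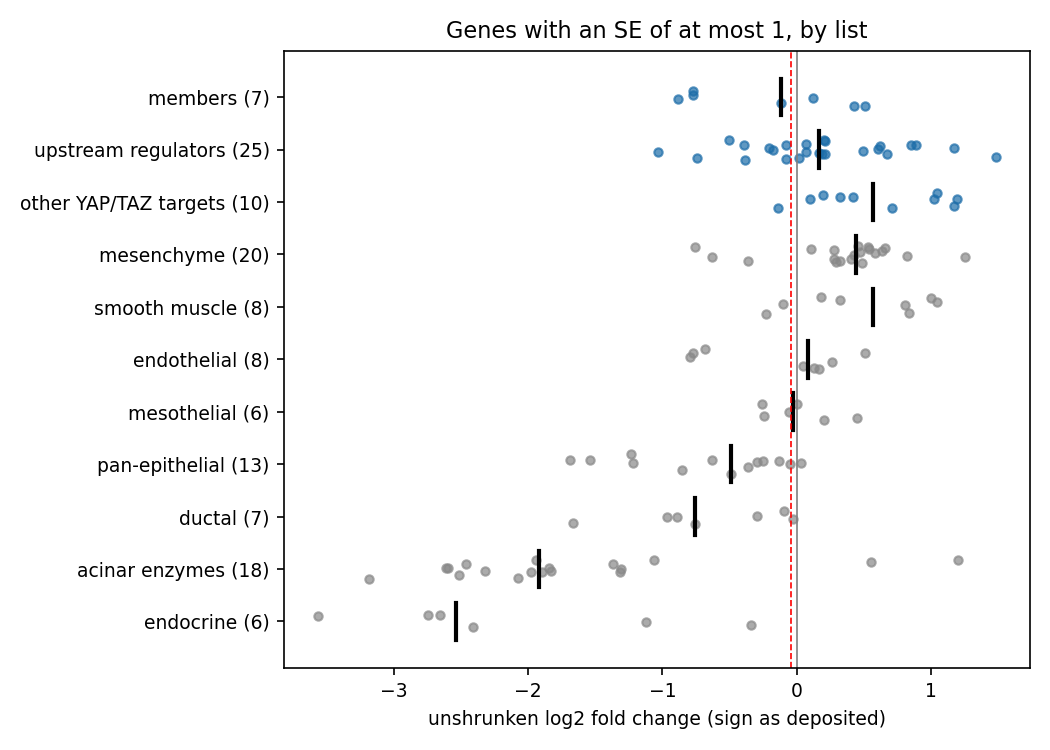
Unshrunken log2 fold changes (x axis, signed as in the deposited table) of genes with an SE of at most 1 in the Hippo lists (blue) and in cell type lists (grey), 1 point per gene with the number of genes in brackets; black bars are list medians and the red dashed line is the median of all 5710 such genes, -0.04. The members straddle 0 with a median of -0.12, other YAP and TAZ targets have a median of 0.56, and acinar and endocrine genes have the lowest medians.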

How the data were processed

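Per the labels' protocols, ribosomal RNA was removed from RNA of 3 knockout and 3 control dorsal pancreas samples, and a SMARTer kit gave stranded libraries. Per the submitters' processing notes, Trimmomatic, Salmon and DESeq2 were used on GRCm38 (mm10); their versions and the fitted model were not given in the sources read here. The authors deposited 1 table with, per gene, the mean normalized count (a signal averaged over all libraries), a shrunken log2 fold change with its posterior SD in log2 units, a p-value (14386 genes) and its adjusted p-value (12108 genes). The planned edgeR test was not run, because the table holds no counts per library; a gene is called at the authors' adjusted p under 0.05.

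Unshrunken values were reconstructed in Python 3.11.15 (SciPy 1.17.1) on the assumption of a Cauchy prior of 1 scale for all genes and a quadratic likelihood. The scale of 0.31 returned the z of the deposited p (median difference 0.0085), with 90.8% of genes off by at most 0.1; values are given only for these 13059 genes, and the members differed by at most 0.010. In a simulation of this comparison with 13059 genes, 200 of them changed, 100% of values were recovered to within 0.05, which checks the arithmetic only. Lengths and positions are from GENCODE M21 (GRCm38), matched by Entrez gene ID for 92.6% of genes. Named genes are all members, Dpy30, the called genes of each pathway list or otherwise its 3 smallest p, the 2 smallest p of each cell type list, and others marked as given for their role or chosen after their values were seen. The members, lists and rules were chosen with earlier results of these data known.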

Additional observations from a re-analysis of the deposited data

How the results depend on the processing

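The count of 0 called members was the same with p-values adjusted over all 14386 genes with a p, with an adjusted p under 0.1 and with a minimum mean count of 10. Adjusting over all genes or after the minimum could not have altered it. An adjusted p is never below the unadjusted p, and the members' smallest unadjusted DESeq2 p was 0.0661 (Tead2). At an adjusted p under 0.1, only Tead2 could have been called. The minimum count also could not alter the count of 0 members at an unadjusted p under 0.05. It removes no member, as the lowest mean count among them was 40.5 (Yap1). Of 40 values of single members under 5 alternatives (3 scalings, a prior scale 1.5 times larger and the authors' deposited shrunken values), 36 kept their direction and none had an adjusted p under 0.05; these ranged from 0.253 to 1.00. Direction could not change with the larger prior or the deposited values, which share the sign of the unshrunken value by construction. The shift of the all-gene scaling was smaller than every member's value. Only the pan-epithelial and mesenchyme scalings could therefore reverse a member, and each reversed 2. Of the reversals, Yap1 became 0.35 and Tead1 0.37 relative to pan-epithelial genes, and Wwtr1 became -0.020 and Amotl2 -0.32 relative to mesenchyme genes. These follow from the constant each scaling adds, 0.49 and -0.44; the scaling on the median of all genes adds 0.04. With a prior scale 1.5 times smaller, Tead2 was -0.64 (adjusted p = 0.0372) and Lats1 was -2.60 (adjusted p = 0.00291) by the z of the reconstructed values; that scale gave no value for 94.4% of genes, the other 6 members included, and returned the deposited p for 0.834%. The larger prior scale also fitted poorly, as it returned the deposited p for 12.8% of genes, against 90.8% at the scale used. Its values are therefore a weak check. The median of the members, -0.13, was -0.12 with an SE of at most 1, 0.36 relative to pan-epithelial genes, -0.58 relative to mesenchyme genes and -0.02 with the larger prior. No paired analysis was possible because the table holds no values per library, and for the same reason no replicate could be left out. The depth of each library is unknown; Yap1 had the largest SE of the members, 1.45.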

Other observations

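Endothelial and mesothelial cells also use the Hippo pathway, and their genes lay near the middle of the table. None of the 15 endothelial genes was called in the authors' deposited DESeq2 table (0, and 0 with an unadjusted p under 0.05), and the median unshrunken log2 fold change was 0.09 over 8 genes with an SE of at most 1. The sign was positive in 9 and negative in 6. By the smallest p, Kdr, a VEGF receptor, had no determined size and Emcn, an endothelial surface mucin, was at -1.63 ± 1.38 (SE). Among 7 mesothelial genes that were measured, 0 were called by DESeq2 and 0 reached an unadjusted p under 0.05, with a median of -0.03 over 6 genes; Upk3b was at 0.45 ± 0.39 and Wt1 at -0.26 ± 0.51 (SE).

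Ductal genes, of the epithelial cells in which YAP is known to persist, were negative in 11 of 11, with a median of -0.76 over 7 genes. By the authors' DESeq2 test 0 of the 11 were called, and for 2 the unadjusted p was under 0.05, which is 18.2% against 5.39% of all genes. Pkhd1, a protein of the primary cilium, was at -1.66 ± 0.67 (SE), and the size of Bicc1, the other of the 2, could not be determined. Sox9, the progenitor and duct factor, named after its value was seen, was at -0.96 ± 0.58 (SE).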
